A study of Mus musculus with 12 samples.

Results

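Sca1-high prostate epithelial cells were compared with luminal prostate epithelial cells, across all genes of an expression array. The comparison used 8 of the 12 arrays of the study, 4 of Sca1-high and 4 of luminal cells, chosen by the gate named in each sample's label; the 4 arrays of basal cells entered the fit for its estimate of spread and are given where they bear on a result. All cells came from wild-type, hormone-naïve male mice, and all were negative for the lineage markers CD45 (leukocytes), CD31 (endothelial cells) and Ter119 (erythroid cells). The Sca1-high gate held CD49f-positive cells with high surface Sca1, the luminal gate cells low in both proteins, and the basal gate CD49f-positive cells with intermediate Sca1. Sorting on the surface protein LY6D then split each gate in 2, which gave Sca1-high LY6D+ and Sca1-high LY6D- libraries from mice 1 and 5, luminal LY6D+ and luminal LY6D- libraries from mice 4 and 5, and basal LY6D+ and basal LY6D- libraries from mice 3 and 5. Mouse age, strain and the number of cells per library were not given in the sources used here. Libraries labelled as the LY6D+ and LY6D- cells of 1 mouse share that animal, so the 4 libraries of a gate are 2 mice, and the errors below hold the spread over libraries and not that over animals. The gates share mouse 5 alone, and mice 1 and 4 each gave 1 gate.

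Luminal cells line the prostate gland and make its secretion, which is why their RNA is rich in transcripts of secreted proteins and of the endoplasmic reticulum machinery that folds them. Sca1, a GPI-anchored surface protein, is used with CD49f (integrin alpha 6) to sort mouse prostate cells, and Sca1-high cells are enriched in the part of the prostate ducts near the urethra. Sca1 is also present on endothelial and stromal cells of the mouse, so that a lineage exclusion is needed to read a Sca1-high gate as epithelial.

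Values are log2 signals per probe set, and the values of a gene are always given in the order LY6D+ mouse 1, LY6D+ mouse 5, LY6D- mouse 1 and LY6D- mouse 5 for Sca1-high cells, LY6D+ mouse 4, LY6D+ mouse 5, LY6D- mouse 4 and LY6D- mouse 5 for luminal cells, and LY6D+ mouse 3, LY6D+ mouse 5, LY6D- mouse 3 and LY6D- mouse 5 for basal cells. Differences are Sca1-high minus luminal, with LY6D classes weighted equally, ± the moderated SE, and adjusted p values are limma's after Benjamini-Hochberg adjustment over 20135 genes, with a threshold of 0.05. Levels of different genes cannot be set against each other on this array. The lower quartile of all values, 2.98, is used as a guide to dim signal.

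Neither measured gene of a sort protein passed the threshold, and Ly6d RNA did not follow the LY6D label. Itga6, which encodes CD49f, was at 6.07, 7.93, 7.03 and 6.91 in Sca1-high and 6.77, 7.01, 5.97 and 6.20 in luminal libraries, a difference of 0.50 ± 0.46 (adjusted p = 0.792). Ly6d was at 5.54, 4.70, 4.96 and 7.37 in Sca1-high and 4.81, 5.20, 5.11 and 4.61 in luminal libraries; the highest value was in the Sca1-high library labelled LY6D- of mouse 5. No probe set was listed for Ly6a, the gene of Sca1. Among the lineage proteins, Pecam1, which encodes CD31, was at 6.84, 9.16, 9.58 and 8.14 in Sca1-high and 4.43, 5.73, 5.53 and 5.03 in luminal libraries, without overlap (difference 3.25 ± 0.58, adjusted p = 0.113). Ptprc, which encodes CD45, was at 3.86, 4.41, 4.53 and 3.98 in Sca1-high and 4.04, 6.91, 5.97 and 8.90 in luminal libraries, with the luminal values spread from dim to bright (difference -2.26 ± 0.71, adjusted p = 0.406). RNA of lineage genes was thus measured in cells whose labels call them lineage-negative, Pecam1 on the Sca1-high side and Ptprc on the luminal side.

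Both gates carried the general epithelial genes Cdh1 and Epcam, with a mean of both at 8.21 to 10.60 in Sca1-high and 9.16 to 10.29 in luminal libraries. Of the 6 luminal epithelial markers (Krt8, Krt18, Krt19, Cldn4, Foxa1 and Hoxb13), 0 had a higher mean in Sca1-high cells, and the marker means were 5.54 to 8.17 against 8.15 to 8.68. The Sca1-high LY6D+ library of mouse 5 stood apart: its marker mean was the lowest of all, its Krt8 and Krt18 signals were 6.48 and 5.30 against 8.45 and 10.02 or more in the other 3 Sca1-high libraries, and it had the lowest median correlation with the rest of the 12 arrays, at 0.807. The total count of genes past the threshold is given with and without it, and so is each list's count where leaving it out changes that count. Over all genes tested, 59.8% had a positive difference, 3.57% were higher without overlap and 2.48% lower without overlap. Of 8 endothelial markers, 7 were higher in Sca1-high cells and 5 of these did not overlap. Their means were 5.92 to 7.92 in Sca1-high against 4.35 to 4.73 in luminal libraries. Cldn5 and Egfl7 were among the markers that overlapped, with differences of -0.011 ± 0.27 and 0.03 ± 0.23. Of 5 myeloid markers, 0 were higher in Sca1-high cells and 3 were lower without overlap, with means of 4.42 to 6.08 in Sca1-high against 7.08 to 8.75 in luminal libraries. Fibroblast markers had means of 6.26 to 6.75 in Sca1-high and 5.78 to 6.43 in luminal libraries, and pericyte and smooth muscle markers 5.85 to 6.60 and 5.74 to 6.86. None of the 4 erythroid markers had a probe set of its own. Fewer cells of a type and less RNA per cell cannot be told apart in such bulk libraries, here and below.

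Sca1-high cells differed from luminal cells in 28 genes, or 0.139% of those tested. Of these, 8 were higher in Sca1-high cells (0.0397%) and 20 lower (0.0993%). The higher genes included markers of blood vessel endothelium, a fatty acid carrier, a matrix protein and the gap junction protein Cx43, with differences between 2.55 and 5.69 on the log2 scale. The lower genes included secreted and secretory pathway proteins, beta-defensins, a urothelial plaque protein, a co-stimulatory molecule of antigen-presenting cells and the MYC antagonist Mxi1, with falls between 1.24 and 5.77. An unadjusted p under 0.05 was reached by 1693 genes (8.41%). With arrays centred on their medians 17 genes passed, 3 higher and 14 lower. With the LY6D+ and LY6D- libraries of a mouse and gate treated as related, as a random block, 12 passed, 3 higher and 9 lower. Of 13937 probe sets with several gene symbols or none listed, tested apart, 1 was higher (0.00718%) and 3 lower (0.0215%), with an unadjusted p under 0.05 for 1062 (7.62%). Without the Sca1-high LY6D+ library of mouse 5, 17 genes passed (7 higher, 10 lower), including 12 of the 28, and without any library of mouse 5 limma called 0, while 1209 had an unadjusted p under 0.05.

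The largest rises included genes of blood vessel endothelium. Emcn encodes endomucin, a sialomucin of capillary and venous endothelium. Its signal was 9.08, 11.22, 11.22 and 9.79 in Sca1-high libraries, against 3.55, 5.68, 3.95 and 5.37 in luminal libraries. Each Sca1-high value lay above all luminal values, a difference of 5.69 ± 0.66 (adjusted p = 0.0203), or 51.5-fold higher on the linear scale. Adgrl4, an adhesion G protein-coupled receptor of endothelium, was at 7.41, 10.70, 9.0 and 6.75 in Sca1-high libraries, against 3.21, 3.59, 3.40 and 3.08 in luminal libraries. The luminal values were dim throughout, and the Sca1-high LY6D+ cells of mouse 5 gave the brightest one (difference 5.14 ± 0.74, adjusted p = 0.0469). Ctla2a, a cysteine protease inhibitor placed in the endothelial list, was at 6.56, 9.0, 6.77 and 5.51 in Sca1-high libraries, against 3.19, 2.90, 3.56 and 4.16 in luminal libraries (difference 3.51 ± 0.49, adjusted p = 0.0414), with the largest gap again in the LY6D+ cells of mouse 5.

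**Figure D1:**
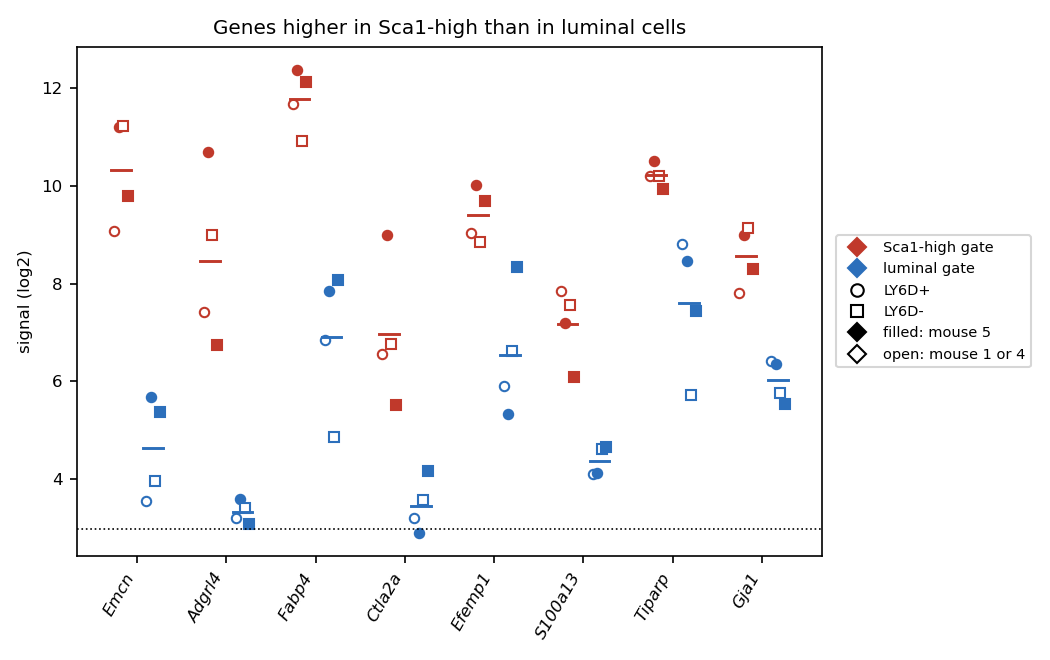
Log2 signal (vertical axis) of the 8 genes higher in Sca1-high than in luminal cells, 1 point per library, with Sca1-high libraries in red at the left and luminal libraries in blue at the right of each gene. Circles are LY6D+ and squares LY6D- cells, filled points are mouse 5, short bars are gate means and the dotted line is the lower quartile of all values; the gates do not overlap for any of the 8 genes, from Emcn at 10.33 ± 1.07 against 4.64 ± 1.05 to Gja1 at 8.57 ± 0.63 against 6.02 ± 0.44 (SD, n = 4 libraries).

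The promoters of these 3 genes of the endothelial list are shown because they rose together and because factors of the ETS family, which drive endothelial transcription, bind a GGAA core. Only the longer AGGAAG was marked and counted, and the windows hold other GGAA cores that are not marked. The windows run from 250 bases before to 50 bases after the annotated start, 5′ to 3′ on the gene's strand, from RefSeq on GRCm38.p6; capitals mark AGGAAG on either strand. They are chr3:137340828-137341127 (plus strand) for Emcn, chr3:151437632-151437931 (plus strand) for Adgrl4 and chr13:60936576-60936875 (minus strand), the first listed start, for Ctla2a.
Emcn: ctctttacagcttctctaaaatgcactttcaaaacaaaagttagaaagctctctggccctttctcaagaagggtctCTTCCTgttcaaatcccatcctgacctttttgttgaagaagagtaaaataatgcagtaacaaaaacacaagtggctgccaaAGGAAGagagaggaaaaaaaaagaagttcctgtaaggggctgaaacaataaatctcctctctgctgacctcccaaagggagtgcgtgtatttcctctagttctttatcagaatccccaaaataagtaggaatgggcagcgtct
Adgrl4: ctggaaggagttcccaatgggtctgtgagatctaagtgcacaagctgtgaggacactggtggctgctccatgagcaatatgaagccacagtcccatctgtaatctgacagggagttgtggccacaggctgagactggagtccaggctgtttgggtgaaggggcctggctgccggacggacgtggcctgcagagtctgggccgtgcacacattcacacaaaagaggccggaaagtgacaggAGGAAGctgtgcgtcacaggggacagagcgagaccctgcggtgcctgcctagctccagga
Ctla2a: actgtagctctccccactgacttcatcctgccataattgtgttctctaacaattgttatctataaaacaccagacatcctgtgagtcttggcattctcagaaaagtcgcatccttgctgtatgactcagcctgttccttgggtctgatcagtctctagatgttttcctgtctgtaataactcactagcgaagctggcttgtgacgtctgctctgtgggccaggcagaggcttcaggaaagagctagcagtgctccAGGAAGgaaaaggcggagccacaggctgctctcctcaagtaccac

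The letters AGGAAG occurred 2 times in the Emcn window, once at first base -93 in the gene's own direction and once at -174 on the opposite strand, counted from the start. They occurred 1 time in the Adgrl4 window, at -10, and 1 time in the Ctla2a window, at 6. They were present in 35.4% of 32851 RefSeq promoters of this length, in 4 of the 7 higher genes with a promoter in the table (57.1%), in 8 of 14 genes of the endothelial list with one (57.1%) and in 7 of 17 lower genes (41.2%). The gene shares use the first listed start of each gene, and the 35.4% every listed start. A match of AGGAAG describes the letters of the window and not a bound site.

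The gene lists below were drawn up with earlier results of these data known and hold genes that had passed, so their counts describe the lists and do not test them. Each list is given by its tested members, those past the threshold (called by limma), and those with an unadjusted p under 0.05, which for all genes were 812 higher and 881 lower. In the list of endothelial genes, 29 of 30 members were tested, 26 had a higher mean in Sca1-high cells and 3, named above, passed the threshold, while 12 did not overlap between the gates and 13 had an unadjusted p under 0.05, all higher. Over all genes, 718 (3.57%) were higher and 499 (2.48%) lower without overlap. The median difference of the list was 0.89, against 0.075 for all genes, of which 59.8% were positive. Members that missed the threshold included Cdh5, the cadherin of endothelial junctions, at 7.40, 10.80, 11.02 and 7.01 in Sca1-high and 4.39, 4.52, 5.31 and 5.52 in luminal libraries (difference 4.12 ± 0.92, adjusted p = 0.194). Flt1, a receptor for VEGF, was at 6.06, 9.57, 8.57 and 6.94 in Sca1-high and 4.02, 4.68, 4.67 and 3.96 in luminal libraries (adjusted p = 0.138). The guidance receptor Robo4 was at 4.82, 5.67, 6.39 and 5.36 in Sca1-high and 4.53, 4.28, 4.52 and 3.72 in luminal libraries (adjusted p = 0.225). In all 3 the gates did not overlap, and the 2 libraries with the highest Cdh5 were LY6D+ of mouse 5 and LY6D- of mouse 1. List means were 5.30, 6.72, 6.21 and 5.24 in Sca1-high and 4.30, 4.42, 4.49 and 4.26 in luminal libraries. Without the Sca1-high LY6D+ library of mouse 5 the list median was 0.75, with 2 members past the threshold; without the LY6D- library of mouse 1 it was 0.59, with 0, and without the LY6D+ library of mouse 1 it was 1.20, with 8. The endothelial markers moved with these genes, as they are among them, and the part that endothelial RNA plays in the Sca1-high profile was not tested.

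Vascular signalling genes (ligands, receptors and Notch targets of vessels) had a smaller median difference. Of 23 tested members 21 had a positive difference, 0 passed and 3 reached an unadjusted p under 0.05, all higher, with a median of 0.23. Dll4, the Notch ligand of arterial and tip cells, was at 5.56, 5.68, 4.93 and 4.71 in Sca1-high and 4.56, 4.26, 4.38 and 4.43 in luminal libraries (difference 0.81 ± 0.17, adjusted p = 0.142). Nrp1, a co-receptor for VEGF and semaphorins, differed by 1.06 ± 0.36 (adjusted p = 0.475), and S1pr1, the receptor for sphingosine-1-phosphate on endothelium and lymphocytes, by 2.0 ± 0.94 (adjusted p = 0.613). With arrays centred on their medians, 16 of 23 members were positive, against 9801 of 20135 genes, and the list median was 0.14. Within mouse 5 the list median was 0.40. Lymphatic endothelial genes were not on the higher side (2 of 6 positive, 0 past the threshold, 0 at an unadjusted p under 0.05, median -0.28), though this median turned to 0.11 without mouse 5. Lyve1, a hyaluronan receptor of lymphatic endothelium and macrophages, differed by -0.53 ± 0.43 (adjusted p = 0.761).

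Fabp4, a carrier of fatty acids in capillary endothelium, adipocytes and macrophages, rose to 11.68, 12.37, 10.93 and 12.13 in Sca1-high libraries, against 6.85, 7.86, 4.87 and 8.08 in luminal libraries. Its signal was bright in all 4 Sca1-high libraries and the luminal LY6D- library of mouse 4 was the dimmest (difference 4.86 ± 0.62, adjusted p = 0.0293). Of 12 tested genes of capillary lipid uptake 8 were positive, 1 passed, 3 reached an unadjusted p under 0.05, all higher, and 2 did not overlap (median 0.23, 0.15 with centred arrays). The other gene without overlap was Gpihbp1, which anchors lipoprotein lipase on capillary endothelium, at 8.61, 7.12, 9.89 and 7.38 in Sca1-high and 5.18, 4.92, 4.53 and 4.34 in luminal libraries (difference 3.51 ± 0.69, adjusted p = 0.138). Pparg, the lipid-sensing nuclear receptor, differed by 0.79 ± 0.32 (adjusted p = 0.563). In this list 0 members passed without the Sca1-high LY6D+ library of mouse 5, and the median was then 0.37.

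Among genes of fibroblasts and matrix, 13 of 20 were positive, 1 passed, 6 higher and 1 lower member reached an unadjusted p under 0.05 and 2 did not overlap, with a median of 0.15 (0.07 with centred arrays). The gene that passed was Efemp1, which encodes the extracellular matrix protein fibulin-3. It was at 9.03, 10.02, 8.86 and 9.70 in Sca1-high libraries, against 5.90, 5.33, 6.61 and 8.34 in luminal libraries (difference 2.86 ± 0.40, adjusted p = 0.0414). The luminal LY6D- library of mouse 5 came closest to the Sca1-high values. No member passed (0 of 20) without the Sca1-high LY6D+ library of mouse 5, with a median of 0.18. The proteoglycan Dcn was at 11.12, 10.64, 10.75 and 11.07 in Sca1-high and 10.03, 10.34, 8.65 and 9.94 in luminal libraries, without overlap (difference 1.15 ± 0.29, adjusted p = 0.288), and the collagen Col1a2 differed by 1.67 ± 0.61 (adjusted p = 0.516). Serping1, an inhibitor of complement C1, was at 10.27, 9.23, 9.76 and 8.72 in Sca1-high and 6.41, 5.52, 8.18 and 9.06 in luminal libraries, where LY6D- of mouse 5 reached into the Sca1-high range (adjusted p = 0.263). Pericyte and smooth muscle genes had 9 of 15 positive, 0 past the threshold, 1 higher and 2 lower at an unadjusted p under 0.05, and a median of 0.17. Among them Acta2, smooth muscle actin, had its highest value, 8.09, in the luminal LY6D- library of mouse 5.

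Gja1 encodes the gap junction connexin Cx43. It rose to 7.80, 9.01, 9.14 and 8.31 in Sca1-high libraries, against 6.41, 6.37, 5.76 and 5.53 in luminal libraries (difference 2.55 ± 0.30, adjusted p = 0.0203). The basal libraries, at 8.91, 8.84, 9.01 and 9.51, lay in or above the Sca1-high range, a Sca1-high minus basal difference of -0.50 ± 0.30 (adjusted p = 0.573). None of the other 8 tested connexins passed. In the list 1 member, Gja1, reached an unadjusted p under 0.05, and the median was 0.074 (-0.0096 with centred arrays). Gjb2, which encodes Cx26, was the 1 member lower without overlap, at 5.05, 4.85, 4.78 and 5.02 in Sca1-high and 5.67, 5.10, 5.14 and 7.02 in luminal libraries (adjusted p = 0.598).

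S100a13, a calcium-binding protein that takes part in the unconventional release of FGF1, was at 7.86, 7.19, 7.56 and 6.08 in Sca1-high libraries, against 4.11, 4.12, 4.62 and 4.66 in luminal libraries. The luminal values lay within a narrow band below every Sca1-high value (difference 2.80 ± 0.33, adjusted p = 0.0203). Tiparp encodes a mono-ADP-ribosyltransferase that is induced by the aryl hydrocarbon receptor and restrains it. It was at 10.21, 10.51, 10.21 and 9.94 in Sca1-high libraries, against 8.80, 8.47, 5.72 and 7.44 in luminal libraries (difference 2.61 ± 0.35, adjusted p = 0.0381). The Sca1-high values were close together, and the lower luminal values were those of the LY6D- libraries. A second probe set of Tiparp averaged 9.09 in Sca1-high and 7.86 in luminal libraries, a smaller difference of 1.23, also without overlap.

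Of 8 genes of the aryl hydrocarbon receptor pathway 7 were positive, 1 passed, 4 reached an unadjusted p under 0.05, all higher, and 2 did not overlap, with a median of 0.42. Cyp1a1, the classic enzyme target of the receptor, was at 5.22, 6.62, 6.05 and 4.14 in Sca1-high and 4.65, 4.31, 4.63 and 3.72 in luminal libraries, with overlap (adjusted p = 0.563). Cyp1b1, another target, was at 3.23, 4.05, 3.49 and 3.39 in Sca1-high and 2.86, 3.08, 3.20 and 2.77 in luminal libraries, dim in both and without overlap (difference 0.56 ± 0.24, adjusted p = 0.566). Nqo1, a quinone reductase, differed by 0.52 ± 0.22 (adjusted p = 0.579). Without the Sca1-high LY6D+ library of mouse 5, 0 members passed, with a median of 0.34. The Tiparp promoter is shown because the receptor binds a GCGTG core. The window is chr3:65528197-65528496 (plus strand), from RefSeq on GRCm38.p6, with the same limits as above, and capitals mark GCGTG on either strand.
Tiparp: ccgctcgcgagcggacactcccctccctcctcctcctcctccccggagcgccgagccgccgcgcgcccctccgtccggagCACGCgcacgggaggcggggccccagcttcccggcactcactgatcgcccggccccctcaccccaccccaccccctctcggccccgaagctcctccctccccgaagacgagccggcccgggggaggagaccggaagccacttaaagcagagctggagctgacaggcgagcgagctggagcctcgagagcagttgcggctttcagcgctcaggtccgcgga

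The single match began at base -170 and lay on the opposite strand. GCGTG occurred in 32.4% of the 32851 promoters, in 5 of 7 higher genes with a promoter in the table (71.4%), in 5 of 6 genes of this pathway (83.3%) and in 7 of 17 lower genes (41.2%). Here too the gene shares use the first listed start of each gene, the share of all promoters uses every listed start, and a match is not a bound site.

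Among the genes lower in Sca1-high cells, Mxi1 had the largest difference. It encodes a partner of MAX that opposes MYC. Its signal was 5.01, 6.45, 4.98 and 5.32 in Sca1-high libraries, against 11.84, 10.92, 10.49 and 11.58 in luminal libraries. The gap between the gates was wider than the spread within either (difference -5.77 ± 0.40, adjusted p = 0.00243), 54.5-fold lower on the linear scale. The basal libraries, at 5.11, 4.11, 4.60 and 4.62, were in part within the Sca1-high range (Sca1-high minus basal 0.83 ± 0.40, adjusted p = 0.529). A second, dimmer probe set of Mxi1 averaged 5.81 in Sca1-high and 6.60 in luminal libraries and overlapped (-0.80), so the fall rests on 1 probe set. Of the other 12 genes of the MYC-MAX-MXD network none passed. In the list 2 members reached an unadjusted p under 0.05, both lower. The list median was -0.14, with -0.69 within mouse 5, 0.017 without both Sca1-high libraries of mouse 5, and -0.34 without luminal LY6D- of mouse 4 to -0.076 without luminal LY6D- of mouse 5 over single libraries left out. Mxd4, another MAX partner, differed by -0.92 ± 0.33 (adjusted p = 0.506), and Max itself by -1.26 ± 1.10 (adjusted p = 0.783).

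Genes of the prostate secretory protein list lay mostly on the lower side in Sca1-high cells. Of 18 tested members 17 had a negative difference, 4 passed, 11 reached an unadjusted p under 0.05, all lower, and 12 did not overlap, with a median of -2.41. The members that passed were Glb1l3, Mme, Azgp1 and Gdpd1. Glb1l3, a relative of beta-galactosidase, was at 3.04, 3.45, 5.73 and 4.41 in Sca1-high libraries, against 8.52, 8.46, 7.69 and 9.44 in luminal libraries (difference -4.37 ± 0.51, adjusted p = 0.0203). Mme, the cell surface peptidase neprilysin, was at 4.74, 5.47, 6.10 and 6.43 in Sca1-high libraries, against 8.52, 10.17, 8.17 and 9.44 in luminal libraries (difference -3.39 ± 0.50, adjusted p = 0.0484). Azgp1, a zinc-binding glycoprotein of seminal fluid, was at 5.19, 5.18, 4.72 and 4.40 in Sca1-high libraries, against 7.46, 8.40, 7.71 and 8.52 in luminal libraries (difference -3.15 ± 0.32, adjusted p = 0.0106). In all 3 the lowest luminal value stood more than 1 log2 unit above the highest Sca1-high value. Gdpd1, a lipid phosphodiesterase, was at 4.49, 4.15, 4.13 and 4.28 in Sca1-high libraries, against 4.52, 5.29, 7.41 and 6.99 in luminal libraries (difference -1.79 ± 0.23, adjusted p = 0.0293). Its luminal signal was high in the LY6D- libraries, while the LY6D+ library of mouse 4 was level with Sca1-high cells.

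Other members of the prostate secretory list missed the threshold. Rnase1, a secreted ribonuclease, was at 7.36, 5.44, 7.61 and 5.03 in Sca1-high and 9.32, 10.85, 10.31 and 10.29 in luminal libraries (difference -3.83 ± 0.64, adjusted p = 0.0833). Spink8, a protease inhibitor, was at 3.54, 3.70, 4.26 and 4.05 in Sca1-high and 5.96, 7.75, 5.37 and 6.76 in luminal libraries (difference -2.57 ± 0.42, adjusted p = 0.0757). Tgm4, the prostate transglutaminase, was at 8.99, 6.62, 11.28 and 6.19 in Sca1-high and 11.49, 11.80, 11.46 and 12.37 in luminal libraries (difference -3.51 ± 1.10, adjusted p = 0.407). These 3 did not overlap between the gates, and Tgm4 in Sca1-high LY6D- cells of mouse 1 came within reach of the luminal values. List means were 6.63, 5.43, 7.37 and 6.17 in Sca1-high and 8.27, 8.71, 8.48 and 8.96 in luminal libraries. Without the Sca1-high LY6D+ library of mouse 5 the list median was -1.86 with 1 member past the threshold, and without mouse 5 it was -1.34 with none.

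Seminal vesicle secretory proteins, whose RNA is made by the neighbouring seminal vesicle, were on the same side. All 7 tested members were negative and 6 did not overlap, 0 passed and 5 reached an unadjusted p under 0.05, and the median was -2.70. Sva, a seminal vesicle autoantigen outside that list, had the largest difference of any gene that missed the threshold without overlap, at 8.13, 2.15, 2.54 and 3.02 in Sca1-high and 10.27, 9.60, 10.19 and 9.87 in luminal libraries (difference -6.02 ± 1.58, adjusted p = 0.326). Svs3b was at 9.98, 4.58, 4.17 and 5.06 in Sca1-high and 9.89, 9.39, 9.22 and 10.36 in luminal libraries, where the Sca1-high LY6D+ library of mouse 1 lay within the luminal range (adjusted p = 0.429). That library was bright for Sva too. Without the Sca1-high LY6D- library of mouse 1 the list median was -1.68.

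Both beta-defensins past the threshold were lower. Defb42 was at 3.03, 3.37, 3.44 and 4.28 in Sca1-high libraries, against 8.57, 9.77, 6.12 and 7.45 in luminal libraries (difference -4.45 ± 0.43, adjusted p = 0.00834). Defb1, a constitutive epithelial antimicrobial peptide, was at 5.31, 6.73, 7.74 and 6.11 in Sca1-high libraries, against 10.67, 11.03, 9.79 and 10.54 in luminal libraries (difference -4.03 ± 0.53, adjusted p = 0.0309). Neither overlapped, and Defb42 was near the lower quartile in Sca1-high cells. Of 18 tested genes of the defence list 9 were positive, 2 passed, both lower, 4 reached an unadjusted p under 0.05 and 4 did not overlap, all lower. The list median was 0.022 and turned negative, at -0.062, with arrays centred on their medians; with the stricter filter on dim genes 3 of 12 members were positive and the median was -0.56. Over single libraries left out it ran from -0.11 to 0.11. Defb50 was at 11.23, 9.60, 11.77 and 10.19 in Sca1-high and 12.34, 12.05, 12.36 and 12.29 in luminal libraries (adjusted p = 0.316), and the lysozyme Lyz1 differed by -1.88 ± 0.43 (adjusted p = 0.218).

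Upk1a, a tetraspanin of the urothelial plaque, fell to 5.77, 4.24, 4.64 and 5.46 in Sca1-high libraries, against 9.57, 9.36, 9.30 and 9.16 in luminal libraries. The luminal values were nearly equal in all 4 libraries (difference -4.32 ± 0.43, adjusted p = 0.00933). The other 5 uroplakins did not pass, and 1 member of the list, Upk1a, reached an unadjusted p under 0.05. The list median was -0.031, with no steady sign: it was -0.18 without luminal LY6D- of mouse 5, 0.12 without luminal LY6D- of mouse 4 and 0.085 without Sca1-high LY6D- of mouse 5. Upk1b, the other tetraspanin of the plaque, differed by -1.28 ± 0.61 (adjusted p = 0.619). Tspan1, a tetraspanin of secretory epithelia, was at 4.30, 3.73, 4.72 and 4.58 in Sca1-high libraries, against 7.44, 7.11, 7.41 and 8.14 in luminal libraries (difference -3.19 ± 0.26, adjusted p = 0.00366). Of the 18 tested members of the tetraspanin list, which leaves out the uroplakins, 1 passed (Tspan1) and 3 reached an unadjusted p under 0.05, all lower. The list median was -0.27, or 0.083 without mouse 5.

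**Figure D2:**
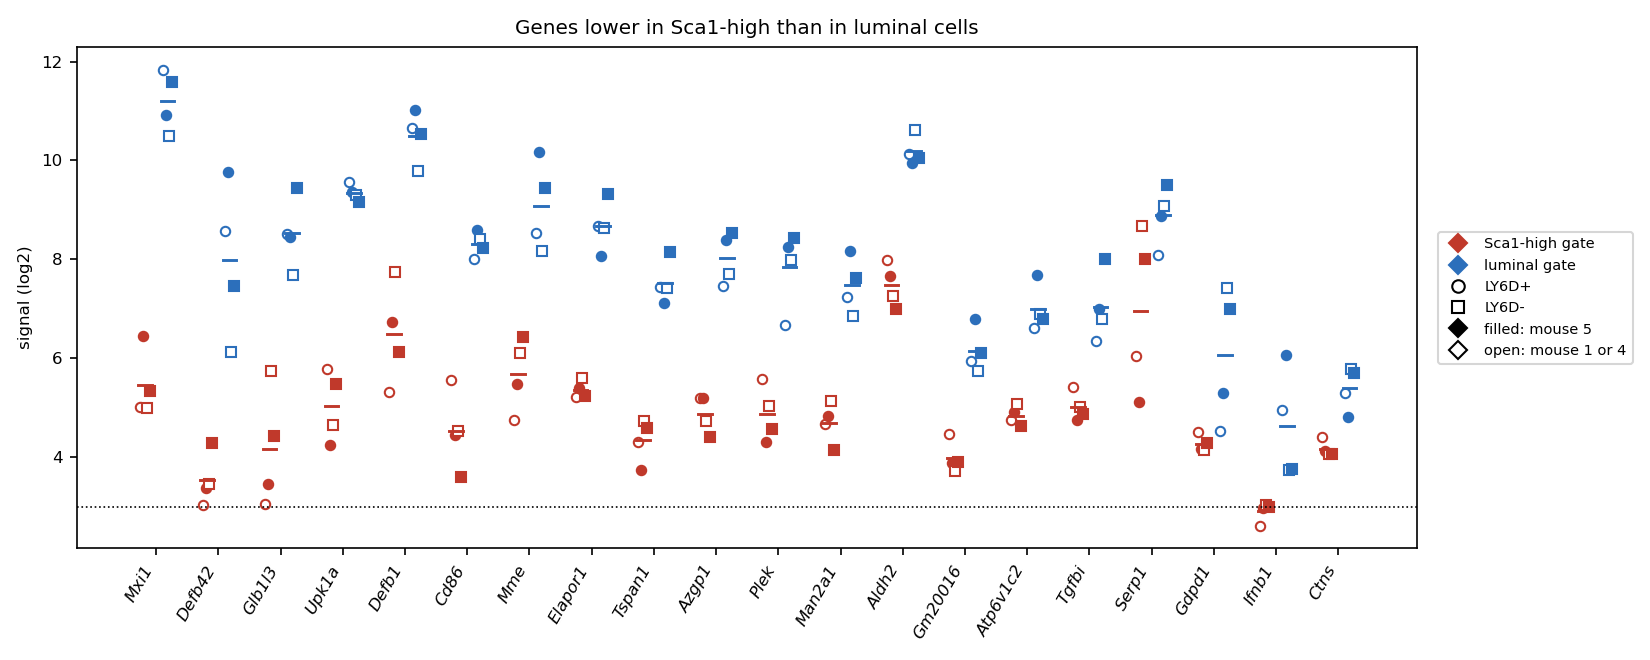
Log2 signal (vertical axis) of the 20 genes lower in Sca1-high than in luminal cells, with the points, bars and dotted line drawn as in the plot of the higher genes. The gates do not overlap for 19 of the 20 genes; for Serp1 the Sca1-high LY6D- library of mouse 1 lies among the luminal ones.

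Genes of the secretory pathway were among the lower genes past the threshold. Elapor1, a membrane protein of the endosomal and secretory pathway, was at 5.22, 5.38, 5.60 and 5.23 in Sca1-high libraries, against 8.67, 8.07, 8.64 and 9.31 in luminal libraries (difference -3.32 ± 0.40, adjusted p = 0.0227). Man2a1, a Golgi mannosidase that trims N-glycans, was at 4.66, 4.82, 5.13 and 4.13 in Sca1-high libraries, against 7.24, 8.17, 6.85 and 7.61 in luminal libraries (difference -2.78 ± 0.39, adjusted p = 0.0414). Neither overlapped, and the 4 Sca1-high values of Elapor1 were close together. Serp1, which stabilises new membrane proteins at the translocon, was at 6.04, 5.10, 8.67 and 8.01 in Sca1-high libraries, against 8.08, 8.88, 9.07 and 9.51 in luminal libraries (difference -1.93 ± 0.28, adjusted p = 0.0484), the only one of the 28 genes whose gates overlapped, in the Sca1-high LY6D- library of mouse 1.

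Of 23 genes of endoplasmic reticulum folding and the unfolded protein response 21 were negative, 0 passed, 14 reached an unadjusted p under 0.05, all lower, and 8 did not overlap (median -0.80). Hyou1, a chaperone of the reticulum, was at 5.81, 5.24, 5.86 and 5.13 in Sca1-high and 7.45, 6.66, 7.20 and 7.94 in luminal libraries (difference -1.80 ± 0.36, adjusted p = 0.142). Pdia6, a disulfide isomerase, was at 6.13, 4.39, 6.30 and 5.88 in Sca1-high and 7.83, 7.03, 7.53 and 8.54 in luminal libraries (difference -2.06 ± 0.42, adjusted p = 0.142). The Pdia6 signal was lowest in Sca1-high LY6D+ cells of mouse 5. Without mouse 5 the list median was -0.49.

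Lysosomal and metabolic genes were among the falls. Ctns, the lysosomal cystine exporter, was at 4.39, 4.11, 4.06 and 4.06 in Sca1-high libraries, against 5.29, 4.80, 5.77 and 5.69 in luminal libraries (difference -1.24 ± 0.18, adjusted p = 0.0439). Atp6v1c2, a subunit of the vacuolar proton pump, was at 4.74, 4.91, 5.07 and 4.61 in Sca1-high libraries, against 6.61, 7.69, 6.88 and 6.79 in luminal libraries (difference -2.16 ± 0.28, adjusted p = 0.0296). Both sets of Sca1-high values were tight. Aldh2, the mitochondrial aldehyde dehydrogenase, was at 7.99, 7.67, 7.25 and 6.99 in Sca1-high libraries, against 10.12, 9.94, 10.62 and 10.05 in luminal libraries (difference -2.71 ± 0.20, adjusted p = 0.00243). A second, dimmer probe set of Aldh2 differed by -0.71 and overlapped. Tgfbi, a matrix protein induced by TGF-beta, was at 5.40, 4.74, 5.01 and 4.87 in Sca1-high libraries, against 6.35, 7.0, 6.79 and 8.01 in luminal libraries (difference -2.03 ± 0.29, adjusted p = 0.0469). Gm20016, annotated by RefSeq as a long non-coding RNA, was at 4.45, 3.87, 3.71 and 3.88 in Sca1-high libraries, against 5.94, 6.78, 5.74 and 6.10 in luminal libraries (difference -2.16 ± 0.30, adjusted p = 0.0414), without overlap.

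Cd86, a co-stimulatory ligand of antigen-presenting cells, fell to 5.55, 4.44, 4.51 and 3.60 in Sca1-high libraries, against 8.01, 8.59, 8.41 and 8.23 in luminal libraries. The luminal values were bright and close together (difference -3.78 ± 0.35, adjusted p = 0.00750). Plek, pleckstrin of leukocytes and platelets, was at 5.57, 4.30, 5.03 and 4.56 in Sca1-high libraries, against 6.68, 8.25, 7.99 and 8.43 in luminal libraries (difference -2.97 ± 0.38, adjusted p = 0.0296). Ifnb1, interferon beta, was at 2.60, 2.95, 3.01 and 2.99 in Sca1-high libraries, against 4.94, 6.05, 3.74 and 3.75 in luminal libraries (difference -1.73 ± 0.24, adjusted p = 0.0429). The Sca1-high signal of Ifnb1 lay near or under the lower quartile, so the size of its fall is uncertain.

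Of 18 myeloid genes 16 were negative, 0 passed, 10 lower and 1 higher member reached an unadjusted p under 0.05, and 7 were lower without overlap (median -1.24). The macrophage gene Adgre1 was at 4.70, 5.14, 3.98 and 5.21 in Sca1-high and 8.50, 8.04, 5.60 and 8.35 in luminal libraries (difference -2.86 ± 0.57, adjusted p = 0.138). Cd68, a lysosomal glycoprotein of macrophages, was at 8.74, 4.78, 7.42 and 7.35 in Sca1-high and 10.48, 10.48, 10.36 and 10.50 in luminal libraries (difference -3.38 ± 0.68, adjusted p = 0.142). Both were apart between the gates, and Cd68 was lowest in Sca1-high LY6D+ cells of mouse 5. Of 10 genes of MHC class II and co-stimulation 8 were negative, 1 passed (Cd86), 6 reached an unadjusted p under 0.05, all lower, and 5 were lower without overlap (median -1.12). H2-Eb1, a class II beta chain, was at 5.82, 5.08, 6.28 and 5.11 in Sca1-high and 6.77, 7.55, 7.77 and 9.30 in luminal libraries (difference -2.28 ± 0.39, adjusted p = 0.0954), and H2-Aa, the alpha chain of another pair, differed by -2.07 ± 0.41 (adjusted p = 0.138). Lymphoid genes had 4 of 12 positive, 0 past the threshold, 2 lower at an unadjusted p under 0.05, and a median of -0.38 (0.023 without mouse 5). Cd68 passed as the 1 myeloid member without the Sca1-high LY6D+ library of mouse 5 (limma, -2.39, adjusted p = 0.0264), and it passed without that of mouse 1 too. Without luminal LY6D- of mouse 4, Adgre1, Mrc1 and Csf1r passed, all lower. The myeloid median was -2.25 within mouse 5, -0.70 without the Sca1-high LY6D+ library of mouse 5 and -0.47 without mouse 5. Cd86, Plek, H2-Eb1 and H2-Aa are leukocyte genes and were lower in Sca1-high cells, as the myeloid markers given above were. Within the luminal gate the Cd86 values were close together, while the myeloid marker means ran from 7.08 to 8.75. The part of leukocyte RNA in these falls was not tested.

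**Figure D3:**
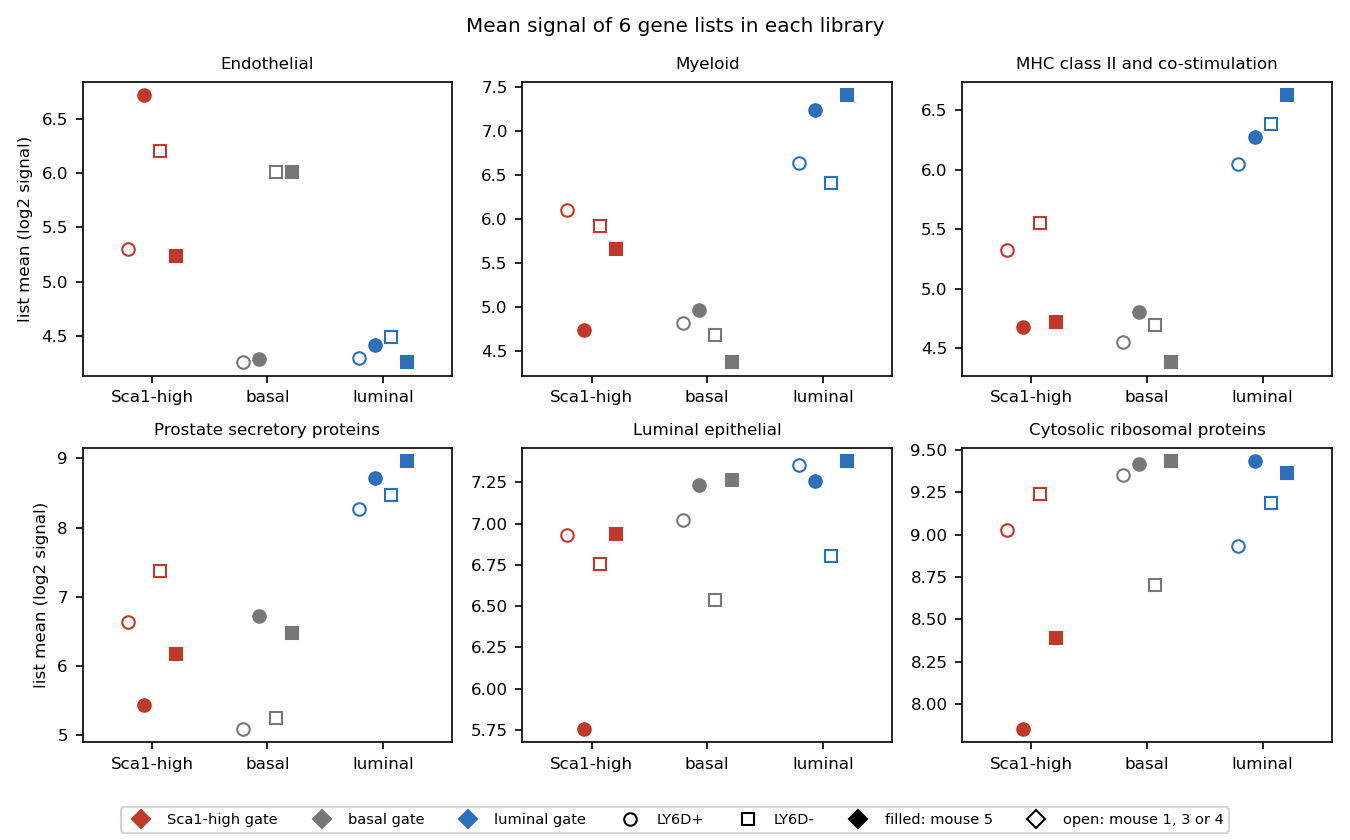
Mean log2 signal (vertical axes, each with its own range) of 6 gene lists in each library, for the Sca1-high, basal and luminal gates. Circles are LY6D+ and squares LY6D- cells, and filled points are mouse 5; endothelial means were 5.30, 6.72, 6.21 and 5.24 in Sca1-high and 4.30, 4.42, 4.49 and 4.26 in luminal libraries, and the Sca1-high LY6D+ library of mouse 5 was the lowest of the 12 for luminal epithelial and ribosomal genes.

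Of 20 luminal epithelial genes 19 were negative, 0 passed, 6 reached an unadjusted p under 0.05, all lower, and 3 were lower without overlap (median -0.60). Dpp4, a cell surface peptidase, was at 3.49, 3.82, 4.39 and 4.06 in Sca1-high and 6.16, 5.40, 4.66 and 6.16 in luminal libraries (difference -1.65 ± 0.33, adjusted p = 0.142). Hoxb13, a transcription factor of the prostate lineage, was at 3.91, 3.76, 4.28 and 4.04 in Sca1-high and 4.35, 5.08, 5.18 and 5.31 in luminal libraries (difference -0.98 ± 0.28, adjusted p = 0.353). The keratin Krt8 was at 9.74, 6.48, 8.45 and 8.95 in Sca1-high and 10.18, 10.07, 9.63 and 10.57 in luminal libraries (adjusted p = 0.548). Krt8 overlapped between the gates and its difference leaned on the 1 library that stood apart. Without that library the list median was -0.30.

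Basal epithelial genes had 13 of 18 positive members, 0 past the threshold, 0 at an unadjusted p under 0.05 and 0 without overlap in either direction, with a median of 0.28. Krt14, a basal keratin, was at 10.40, 7.89, 8.96 and 10.41 in Sca1-high and 9.87, 10.31, 4.98 and 6.99 in luminal libraries (difference 1.38 ± 0.64, adjusted p = 0.608). Krt17 was at 11.57, 8.98, 9.45 and 11.30 in Sca1-high and 10.48, 11.18, 6.56 and 7.86 in luminal libraries (adjusted p = 0.625). In both the luminal LY6D+ libraries lay in the Sca1-high range and the luminal LY6D- ones below it.

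Proximal luminal progenitor genes had 5 of 8 positive, 0 past the threshold, 2 higher and 1 lower at an unadjusted p under 0.05, and as many without overlap, with a median of 0.32. Psca, a GPI-anchored protein of proximal ducts and urothelium, was at 11.21, 3.91, 7.08 and 6.41 in Sca1-high and 3.68, 4.0, 3.90 and 3.99 in luminal libraries. The luminal values were uniformly dim, and the Sca1-high values ran from the luminal level, in LY6D+ cells of mouse 5, to very bright in LY6D+ cells of mouse 1 (difference 3.26 ± 1.32, adjusted p = 0.561). Without that dim library Psca was the 1 member of the list past the threshold (limma, 5.09, adjusted p = 0.0470). Krt4, a keratin of stratified and proximal epithelium, was at 3.83, 4.42, 4.51 and 4.13 in Sca1-high and 3.78, 3.79, 3.66 and 3.59 in luminal libraries (adjusted p = 0.523). Clu, the secreted chaperone clusterin, was at 8.0, 7.46, 6.72 and 7.68 in Sca1-high and 8.73, 8.55, 8.04 and 8.32 in luminal libraries (adjusted p = 0.327). Krt4 was higher and Clu lower without overlap. Squamous differentiation genes had 15 of 18 positive, 0 past the threshold, 1 at an unadjusted p under 0.05 and 2 higher without overlap (median 0.18, 0.10 with centred arrays), among them Krt6a, at 5.86, 5.59, 5.22 and 5.27 in Sca1-high and 4.80, 4.66, 4.93 and 4.18 in luminal libraries (adjusted p = 0.501). Neuroendocrine genes had 6 of 8 positive and a median of 0.14, with 0 past the threshold and 0 at an unadjusted p under 0.05.

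Cell cycle genes had 11 of 16 positive, 0 past the threshold, 1 higher at an unadjusted p under 0.05, and a median of 0.10. Immediate early and heat shock genes had 18 of 22 negative, 0 past the threshold, 6 lower at an unadjusted p under 0.05, and a median of -0.45; Jun was at 7.90, 6.72, 8.48 and 8.28 in Sca1-high and 8.71, 8.60, 8.73 and 9.39 in luminal libraries (adjusted p = 0.463). Cytosolic ribosomal protein genes had 17 of 20 negative, 0 past the threshold, 4 lower at an unadjusted p under 0.05 and 4 lower without overlap (median -0.46). Their means were 9.03, 7.85, 9.24 and 8.39 in Sca1-high and 8.93, 9.43, 9.19 and 9.37 in luminal libraries, low in the 2 Sca1-high libraries of mouse 5. Without the Sca1-high LY6D+ library of mouse 5 the medians were -0.22 and -0.24, and without mouse 5 the ribosomal median turned to 0.16. Of the 8 erythroid genes, 2 were tested, with 0 past the threshold and 0 at an unadjusted p under 0.05.

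**Figure D4:**
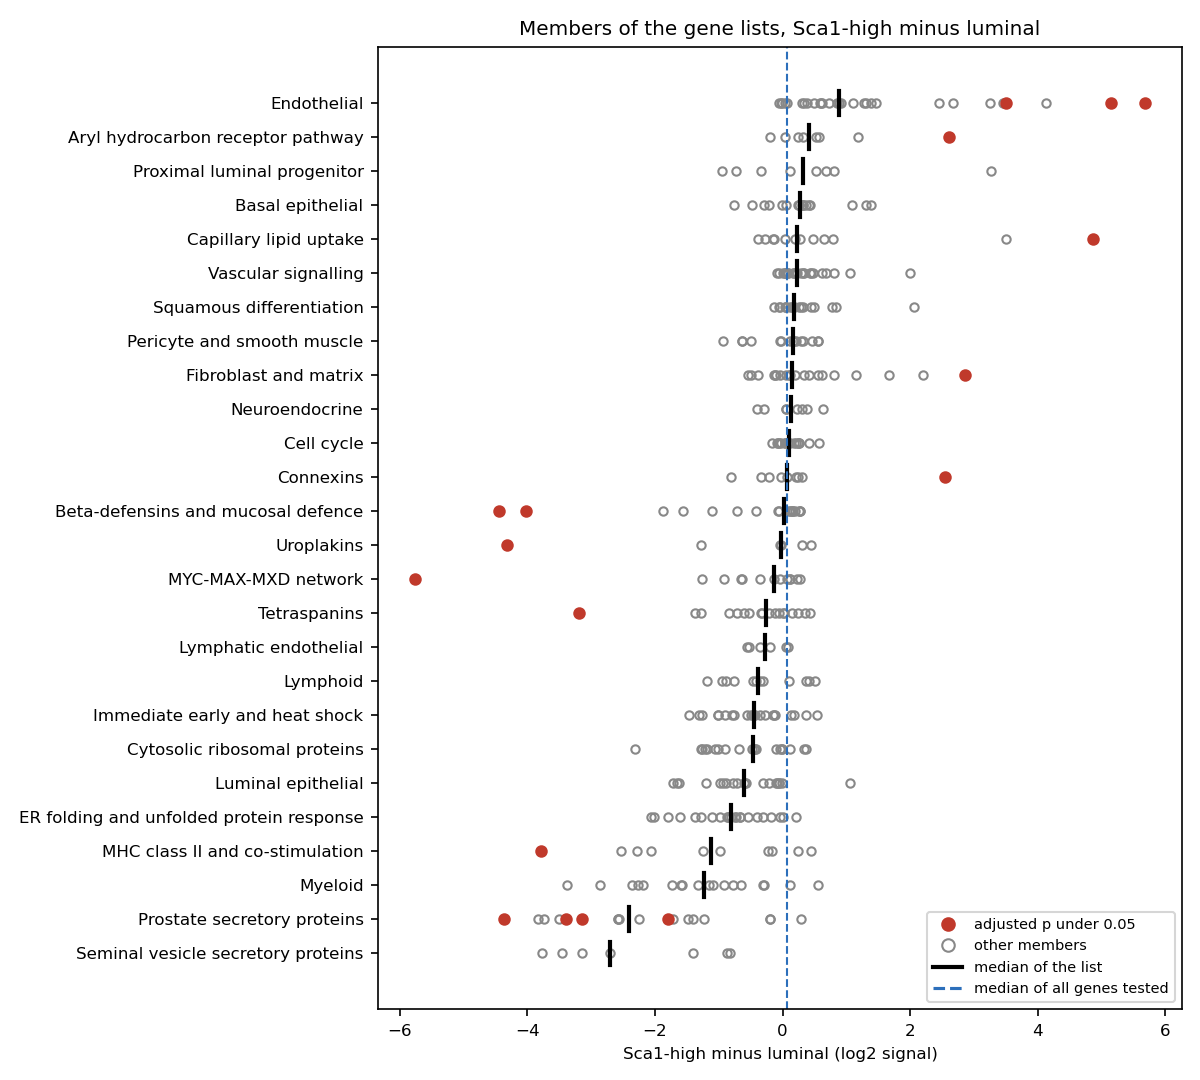
Sca1-high minus luminal difference in log2 signal (horizontal axis) of every tested member of the gene lists with at least 5 tested members, ordered by list median. Filled red points passed an adjusted p of 0.05, black bars are list medians and the dashed line is the median of all genes tested (0.075); medians run from -2.70 for seminal vesicle to 0.89 for endothelial genes.

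Just inside the threshold were Serp1 and Mme, both at an adjusted p of 0.0484, and just outside were Xcl1 (difference -2.61, adjusted p = 0.0515), Noct (2.06, 0.0517) and Mansc1 (-2.13, 0.0534). The largest higher differences without overlap that missed it were those of Cdh5, Iigp1, Igfbp3, Mall, Calcrl, Adgrf5, Gpihbp1, Flt1, Pecam1 and Jam2, from 2.97 ± 0.50 for Jam2 to 4.12 ± 0.92 for Cdh5. Iigp1, an interferon-induced GTPase, was at 7.43, 10.03, 9.94 and 8.42 in Sca1-high and 4.29, 4.19, 4.76 and 6.53 in luminal libraries (adjusted p = 0.0757). Calcrl, a receptor for adrenomedullin on endothelium, was at 7.56, 9.84, 9.18 and 7.33 in Sca1-high and 4.73, 5.65, 3.52 and 5.39 in luminal libraries (adjusted p = 0.0833). Igfbp3, a carrier of insulin-like growth factors, was at 9.77, 9.83, 10.44 and 8.92 in Sca1-high and 4.70, 7.78, 4.58 and 6.68 in luminal libraries (adjusted p = 0.208). All 3 were apart between the gates, and luminal Igfbp3 was brighter in both libraries of mouse 5 than in those of mouse 4. The largest lower ones were those of Sva, Sprr2f, Fgl1, Rnase1, Slc7a11, Cdcp3, Slc35f1, Tgm4, Ccl4 and Svs1. Fgl1, a secreted fibrinogen-like protein, was at 3.95, 4.41, 7.20 and 5.27 in Sca1-high and 9.48, 8.03, 8.77 and 10.31 in luminal libraries (difference -3.94 ± 0.66, adjusted p = 0.0833). The chemokine Ccl4 was at 6.08, 4.90, 5.05 and 5.45 in Sca1-high and 9.55, 10.13, 6.36 and 9.28 in luminal libraries (difference -3.46 ± 0.57, adjusted p = 0.0760), lowest among luminal libraries in LY6D- cells of mouse 4.

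The basal gate shows which of these differences set Sca1-high cells apart from basal cells too. That comparison shares the Sca1-high arrays with the one above, and basal minus luminal shares the luminal arrays, so the calls are not independent. Of the 20 lower genes, 17 had a basal mean within 1 log2 unit of the Sca1-high mean, and the median Sca1-high minus basal difference of the 20 was -0.0074. The other 3 were Aldh2, Defb1 and Serp1, each with a Sca1-high mean under the basal one; Defb1 was at 9.36, 9.15, 6.40 and 8.41 and Serp1 at 8.61, 8.54, 8.35 and 8.28 in basal libraries. For the 8 higher genes 4 were within 1 unit, and the median was 1.60; the other 4 were Emcn, Adgrl4, Ctla2a and Fabp4. Against basal cells 2 genes passed (0.00993%), both lower in Sca1-high cells, while 1979 (9.83%) had an unadjusted p under 0.05, and 961 (4.77%) were higher and 456 (2.26%) lower without overlap. Aldh2 was one of them, at 7.99, 7.67, 7.25 and 6.99 in Sca1-high and 11.16, 10.91, 10.82 and 10.44 in basal libraries (-3.36 ± 0.20, adjusted p = 7.2e-04). On this brightest probe set Aldh2 was therefore lower in Sca1-high cells than in both other gates. Its dimmer probe set differed from luminal cells by -0.71 and overlapped. Pcdh7, a protocadherin, was the other, at 3.15, 2.50, 3.07 and 3.15 in Sca1-high and 5.83, 6.38, 5.72 and 6.63 in basal libraries (-3.17 ± 0.27, adjusted p = 0.00673). It was at 3.09, 2.88, 3.32 and 2.82 in luminal libraries, so that its Sca1-high signal was as dim as the luminal one (-0.062 ± 0.27).

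The endothelial genes that were higher than in luminal cells were uneven within the basal gate. Emcn was at 3.62, 5.06, 10.34 and 10.27 in basal libraries, dim in LY6D+ and bright in LY6D- cells. Adgrl4, at 3.53, 3.50, 8.22 and 6.34, and Ctla2a, at 2.04, 2.41, 6.0 and 5.96, were divided the same way. Sca1-high minus basal was 3.0 ± 0.66 for Emcn (adjusted p = 0.211), 3.07 ± 0.74 for Adgrl4 (adjusted p = 0.276) and 2.86 ± 0.49 for Ctla2a (adjusted p = 0.166). The endothelial list mean was 4.26, 4.28, 6.01 and 6.01 in basal libraries. Basal epithelial genes had a median Sca1-high minus basal difference of -1.58.

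Gate differences were then set against LY6D class, with the labels taken as given. Ly6d RNA was higher in the LY6D- than in the LY6D+ Sca1-high library of mouse 5, and by less in the luminal libraries of mouse 4. Endothelial marker means in Sca1-high LY6D+ and LY6D- libraries were 7.92 and 6.26 in mouse 5, but 5.92 and 7.36 in mouse 1. How far this moves the class differences was not tested. All 8 higher and all 20 lower genes had the same sign in LY6D+ and in LY6D- cells. The genes were chosen on the mean of both classes. For the 8 higher and 19 lower genes without overlap between the gates, the shared sign was fixed in advance, so it is no separate support. Their median differences were 4.29 in LY6D+ and 3.29 in LY6D- cells for the higher genes, and -2.94 and -3.06 for the lower genes. With 2 libraries a group, 2 genes passed among LY6D+ cells (0.00993%) and 6 among LY6D- cells (0.0298%), all lower. The test of the difference between the classes passed for 0 genes, with an unadjusted p under 0.05 for 587 (2.92%). The smallest such p among the 28 genes was that of Gdpd1, which differed by -0.59 in LY6D+ and -2.99 in LY6D- cells (unadjusted p = 4.3e-04, adjusted p = 1.00, limma). Ifnb1 differed by -2.72 and -0.74, Defb42 by -5.97 and -2.92, and Serp1 by -2.91 and -0.95 in LY6D+ and LY6D- cells. Ctla2a, at 4.73 in LY6D+ and 2.28 in LY6D- cells, and Tiparp, at 1.73 and 3.49, leaned opposite ways. Over all genes the smallest p was that of Xcl1, a chemokine of lymphocytes, at 4.16, 4.54, 4.44 and 4.63 in Sca1-high and 4.38, 4.39, 10.69 and 8.75 in luminal libraries (unadjusted p = 8.2e-05, limma). Only the luminal LY6D- libraries were bright for it.

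**Figure D5:**
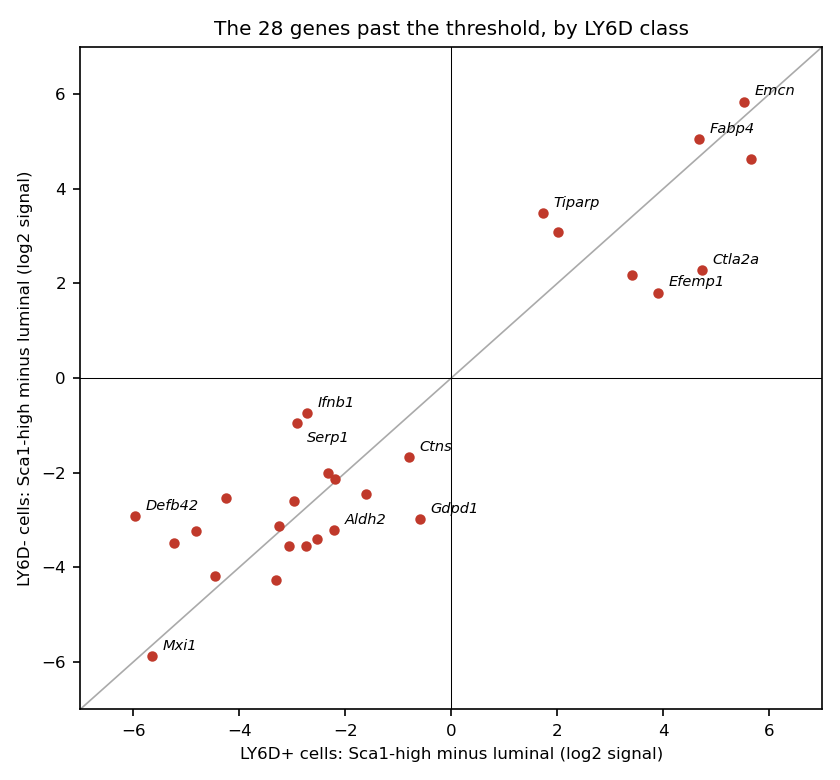
Sca1-high minus luminal difference in log2 signal of the 28 genes past the threshold, in LY6D+ cells (horizontal axis) and LY6D- cells (vertical axis), 1 point per gene and 2 libraries per group. The grey line marks equal differences. Every gene has the same sign in both classes, which the lack of overlap between the gates fixes for all but Serp1. Gdpd1 (-0.59 and -2.99) lies far from the line.

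The 28 differences had the same sign within mouse 5 and between mice 1 and 4. The genes were chosen on the mean of both differences, and the lack of overlap fixes the shared sign for all but Serp1. The shared sign is therefore no replication across animals. Emcn differed by 4.97 within mouse 5 and by 6.40 between mice 1 and 4, Fabp4 by 4.28 and 5.45, Mxi1 by -5.37 and -6.17, Cd86 by -4.39 and -3.18, and Azgp1 by -3.67 and -2.63. The gap was wider within mouse 5 for Plek (-3.91 against -2.03), Serp1 (-2.64 against -1.22) and Tgfbi (-2.70 against -1.36). Between mice 1 and 4 mouse and gate cannot be told apart. With each mouse and gate as a random block, which treats a mouse's LY6D+ and LY6D- libraries as related, 12 genes passed and all were among the 28: Emcn, Fabp4 and S100a13 higher, and Mxi1, Defb42, Glb1l3, Upk1a, Cd86, Elapor1, Tspan1, Azgp1 and Aldh2 lower. With mouse as a fixed block 104 passed, 5 higher and 99 lower, 15 of them among the 28; that difference is the one within mouse 5. With the LY6D+ and LY6D- arrays of a mouse and gate averaged, 18 passed, 11 of them among the 28. The calls of Mxi1, Defb42, Upk1a, Cd86, Tspan1, Azgp1 and Aldh2 held without each single library, and the other 21, all 8 higher genes among them, were lost without at least 1.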

How the data were processed

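RNA of sorted cells was column-purified and amplified with NuGEN Ovation V2, per the labels. The deposited table holds log2 signals per probe set of 12 arrays, made by the authors with RMA and oligo per the submitters' processing notes, versions and settings not given in the sources used here. Values ran from 0.695 to 14.3 and array medians from 3.76 to 3.99, so no further normalization was applied. RMA brings array distributions together, which removes any overall shift in RNA. No detection call, scan date or batch label was used, and the number of arrays limits the precision.

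Of 41345 probe sets, 23521 had 1 gene symbol, 1814 several and 16010 none listed. The brightest probe set stood for each of 22180 genes (1082 had several); 23328 probe sets matched RefSeq by Entrez identifier, which changed 0 symbols. Genes above the table's lower quartile (2.98) on at least 2 arrays, 20135, entered a fit by limma 3.58.1 (R 4.3.3; 6 group means, 12 arrays, 6 residual and 3.28 prior degrees of freedom). Groups came from the sample labels. Contrasts were Sca1-high minus luminal and minus basal, weighting LY6D classes equally, the same within each class, and the difference of the classes, all Benjamini-Hochberg adjusted at 0.05. The fits treat libraries of a mouse as independent. On simulated data the main fit recovered 74 of 100 changes of 2 log2 units and 95 of 100 changes of 4. It also called 11 unchanged genes. The simulated noise was independent between arrays, so this cannot check how libraries of the same mouse affect the calls.

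Mouse numbers in the labels pair the 2 LY6D classes within a gate. The residuals of such pairs about their group means correlated at 0.149 in Sca1-high, 0.0220 in luminal and 0.407 in basal cells. Random blocks had consensus correlations of 0.150 (mouse) and 0.185 (mouse and gate). Alternatives changed filter, probe set rule, centring, arrays, blocks and variance model, or left out libraries.

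Members and gene lists were chosen with earlier results of these data known. Genes named were the sort genes, those past the threshold, the 10 largest differences each way that missed it without overlap, the smallest p values against basal cells and between LY6D classes, and per list members past the threshold and up to 4 others with the smallest p. Cell type markers and genes beside the threshold are also named. Of 432 listed genes 19 had no probe set, 12 shared one with other genes (Krt5 among them) and 4 fell under the filter.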

Additional observations from a re-analysis of the deposited data

Results flagged for a closer look

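Among 55 named genes and 2 gates, 5 values stood far from the other 3 libraries of their gate by Dixon's ratio, which chance gives in about 1 of 20 groups. Ctns was at 4.39 in Sca1-high LY6D+ cells of mouse 1, against 4.06 to 4.11 in the other Sca1-high libraries. Ifnb1 in the same library was at 2.60, against 2.95 to 3.01, all dim. Sva in the same library was at 8.13, against 2.15 to 3.02. Cdcp3 was at 10.68 in luminal LY6D- cells of mouse 5, against 9.68 to 9.85 in the other luminal libraries. Pcdh7 was at 2.50 in Sca1-high LY6D+ cells of mouse 5, against 3.07 to 3.15.

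Outside the gene table, 4 probe sets with several symbols or none listed passed the threshold (limma, adjusted over 13937 such probe sets). One without a listed symbol was higher in Sca1-high cells, at 12.09, 11.87, 12.19 and 12.39 in Sca1-high libraries and 8.35, 8.43, 7.71 and 7.93 in luminal libraries, a difference of 4.03 ± 0.18 (limma, adjusted p = 1.8e-04). Its gene is not given in the annotation used, so it was not settled whether it belongs to a gene of a sort protein, which the gating would fix. Another was lower, at 5.59, 4.37, 5.12 and 5.04 in Sca1-high libraries and 9.94, 8.97, 8.40 and 9.16 in luminal libraries (-4.09 ± 0.38, limma, adjusted p = 0.0242). The third without a symbol was at 2.52, 2.94, 3.41 and 2.95 in Sca1-high libraries and 7.11, 6.89, 6.90 and 8.07 in luminal libraries (-4.29 ± 0.37, limma, adjusted p = 0.0203). The fourth, shared by several H2b histone genes, was at 4.86, 4.74, 5.72 and 5.42 in Sca1-high libraries and 8.60, 9.51, 8.43 and 7.83 in luminal libraries (-3.41 ± 0.35, limma, adjusted p = 0.0341). None of the 4 overlapped between the gates.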

How the results depend on the processing

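Of 983 values of single genes under the alternatives, 0 changed direction, 594 stayed on their side of the threshold, 387 lost the call and 2 (Ptprc and Pecam1) gained it. For genes without overlap between the gates, leaving out libraries could not turn the sign, so the kept direction is no separate support there. The 28 genes of Sca1-high against luminal became 17 with array medians centred (16 shared), 13 with the Sca1-high and luminal arrays alone (9 shared), 104 with mouse as a fixed replicate block (15 shared), 12 with mouse and gate as a random block (12 shared), 18 with each LY6D pair averaged (11 shared), 13 within mouse 5 (3 shared), 6 without both Sca1-high libraries of mouse 5 (5 shared), and 0 without mouse 5 or without the 3 mouse 5 libraries that stood apart on the first principal component, where limma gave 1209 and 1341 genes an unadjusted p under 0.05. Leaving out 1 library gave 13 to 165: 165 without luminal LY6D- of mouse 4, 88 without Sca1-high LY6D+ of mouse 1, 17 without Sca1-high LY6D+ of mouse 5, 15 without Sca1-high LY6D- of mouse 1, and 13 without luminal LY6D+ of mouse 5, basal LY6D- of mouse 3 or basal LY6D- of mouse 5. Mouse as a random replicate block gave 37, with all 28 among them, and the other alternatives 20 to 31. The difference between LY6D classes gave 0 genes in all but single-library alternatives, which gave 0 to 7. Against basal cells the 2 genes became 1 with the mean of a gene's probe sets, 8 with LY6D left out or additive, 80 with mouse as a fixed replicate block, 0 with LY6D pairs averaged (1412 unadjusted, limma), 1 within mouse 5, 0 without mouse 5 (1291 unadjusted, limma), 4 with trend and robust variance, 23 without both Sca1-high libraries of mouse 5, and 2 to 133 without 1 library, 133 of them without basal LY6D- of mouse 3. The mean of a gene's probe sets brought Mxi1 to -3.28 and Aldh2 to -1.71. Leaving out 1 library turned the sign of 5 of 27 list medians (lymphatic, erythroid, beta-defensin, uroplakin and cell cycle). The cause of these changes was not tested. Values near or under the lower quartile, as for Ifnb1 and Defb42 in Sca1-high cells, have little order.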
